A study of Mus musculus with 6 samples.

Results

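The 7 genes described here, Marco, Mertk, Fcna, Folr2, Vcam1, Sdc3 and Stab1, take part in scavenging, clearance and adhesion by Kupffer cells, the resident macrophages of the liver. They were taken by symbol, with earlier results of these data known, and all 7 were held in each of the 3 matrices, which list 4486 genes (adjacent tissue), 2669 genes (micrometastasis) and 2643 genes (macrometastasis). Single-cell RNA sequencing (10x Genomics, 3' end) was done on CD45+ cells sorted from livers of Balb/c mice after intracardiac injection of 4TO7 mouse mammary tumor cells. The tumor cells were control cells (Ctrl) or carried an shRNA against Tim3 (Tim3-KD), and the sorted cells of both groups came from tumor-bearing animals. Adjacent tissue and micrometastasis were collected at day 3 and macrometastasis at day 12, which gives 6 libraries, each a pool of 2 mice. The knockdown lies in tumor cells that the CD45 sort leaves out, and it could not be checked in these libraries. Site and day differ together between macrometastasis and micrometastasis and cannot be told apart.

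Kupffer cells line the liver sinusoids and take up particles, lipoproteins, dying cells and aged red cells from portal blood. MARCO is a class A scavenger receptor that binds bacteria and particles, and stabilin-1 (Stab1) is a scavenger receptor known from sinusoidal endothelium and some macrophages. MERTK is a TAM-family receptor tyrosine kinase that recognizes apoptotic cells through the bridging proteins GAS6 and protein S. Ficolin A (Fcna) is a secreted lectin that opens the lectin pathway of complement, and folate receptor beta (Folr2) takes up folate and marks resident macrophages. VCAM-1 is an adhesion molecule that binds integrin alpha 4 beta 1, and syndecan-3 (Sdc3) is a heparan sulfate proteoglycan of the cell surface.

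On the mouse genome build GRCm38, the GENCODE annotation places Marco on chr1:120474538-120505024 and Mertk on chr2:128698956-128802894. Fcna lies on chr2:25624666-25628030, Folr2 on chr7:101839988-101857194 and Vcam1 on chr3:116109949-116129688. Sdc3 lies on chr4:130792537-130826319 and Stab1 on chr14:31139013-31168641. Mertk and Sdc3 are on the plus strand and the other 5 genes on the minus strand. Promoter windows from RefSeq (GRCm38.p6; 250 bases before and 50 from the start site) were held for 6 of the 7 genes, with 2 windows for Folr2. Those of Fcna, Marco and Mertk are shown, since the Fcna window held the most motif letters and the results on tumor genotype turn on Marco and Mertk. Capitals mark the letters of the motifs searched, all on both strands. These were GAGGAAG for the myeloid factor PU.1 and TGCTGAC for MAF-family factors, both known from macrophage genes. Nuclear receptors were searched by AGGTCA and the Notch effector RBPJ by GTGGGAA. The last searches were TCATGTG for the lysosomal MiT/TFE factors and the TATA box, TATAAA.
Fcna: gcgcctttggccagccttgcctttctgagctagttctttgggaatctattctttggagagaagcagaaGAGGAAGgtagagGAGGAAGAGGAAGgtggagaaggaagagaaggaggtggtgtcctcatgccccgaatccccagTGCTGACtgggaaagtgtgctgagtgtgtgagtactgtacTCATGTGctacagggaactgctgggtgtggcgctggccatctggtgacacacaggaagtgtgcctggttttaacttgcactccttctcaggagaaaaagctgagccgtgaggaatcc
Marco: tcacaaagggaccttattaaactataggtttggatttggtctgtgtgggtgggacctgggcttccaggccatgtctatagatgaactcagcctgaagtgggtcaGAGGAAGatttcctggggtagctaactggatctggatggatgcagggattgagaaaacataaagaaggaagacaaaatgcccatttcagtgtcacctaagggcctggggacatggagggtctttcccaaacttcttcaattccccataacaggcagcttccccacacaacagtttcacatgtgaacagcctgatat
Mertk: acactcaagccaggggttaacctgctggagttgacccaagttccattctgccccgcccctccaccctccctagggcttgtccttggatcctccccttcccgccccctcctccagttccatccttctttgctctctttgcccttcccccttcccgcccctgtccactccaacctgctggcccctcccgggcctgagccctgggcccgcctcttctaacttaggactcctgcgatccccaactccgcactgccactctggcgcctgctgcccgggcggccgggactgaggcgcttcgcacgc
The windows are those at chr2:25627925-25628224, minus strand (Fcna), chr1:120504975-120505274, minus strand (Marco) and chr2:128698665-128698964, plus strand (Mertk). The PU.1 letters occurred 3 times in the Fcna window, where 2 of the copies shared a base, and 1 time in the Marco window, and 13.6% of 32851 RefSeq windows of this length held them. The Fcna window also held the MAF letters (4.67% of windows) and the MiT/TFE letters (3.77%). AGGTCA (16.3% of windows), GTGGGAA (6.38%) and TATAAA (13.6%) were in 0 of the 7 windows of these genes. The Mertk window held no motif letters and had a GC content of 66.0%, against 47.3% for Marco and 53.0% for Fcna. These are matches of letters and not binding sites.

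The 6 libraries held 542 to 5502 cells and 7086531 to 79971646 unique molecular identifiers (UMIs), at a median of 6300 to 10248 UMIs per cell, and shared 0 to 11 cell barcodes with each other. Cells were clustered on genes common to the 3 matrices without the 7 genes studied. Clusters 2 and 20 were Kupffer-like by markers, and 93.5% to 100% of their cells in each library had a UMI of Timd4, Clec4f, Vsig4, Cd5l or C1qa when each marker was taken alone. The adjacent tissue libraries held 31 Kupffer-like cells of 1803 (1.72%, Ctrl) and 106 of 542 (19.6%, Tim3-KD). Micrometastasis held 274 of 5106 (5.37%) and 255 of 5142 (4.96%), and macrometastasis 803 of 4913 (16.3%) and 935 of 5502 (17.0%). The adjacent tissue libraries stood apart from each other, with a Kupffer-like class of few cells in Ctrl, of which 35.5% had a doublet score over 0.15, against at most 7.06% in the other libraries. Levels are given as CPM, the UMIs of a gene per 1000000 UMIs of all genes in the cells named. With 1 library per tumor genotype at a site no test between groups was made, and the 95% intervals given (exact Poisson, exact conditional for ratios, exact binomial for shares) cover counting error only. Because 3' counts are not scaled by length, levels are compared between cells and not between genes.

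All of the genes but Stab1 were concentrated in Kupffer-like cells. Kupffer-like cells held 92.8% to 98.9% of all Fcna UMIs of a library, 88.2% to 100% of those of Marco and 80.4% to 99.0% of those of Folr2. They held 77.3% to 89.0% of Mertk UMIs, 75.5% to 96.4% of Vcam1 UMIs and 71.4% to 96.3% of Sdc3 UMIs. For Stab1 the share was 6.02% to 19.4%. B-like cells, which should lack these genes, had at most 6.48 CPM of any of the 7 genes in a library. Among named classes with at least 20 cells in a library and the unnamed clusters taken as 1 pool, Kupffer-like cells ranked first in all 6 libraries for the 6 genes other than Stab1. Taken alone, unnamed cluster 25 in Ctrl macrometastasis was above them for Vcam1 and Marco, and in Tim3-KD macrometastasis for Mertk with overlapping intervals (315 against 307 CPM). Their interval overlapped that of the next class in 1 case, Mertk in Tim3-KD adjacent tissue (Kupffer-like 221 CPM, endothelial-like 189 CPM).

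**Figure D1:**
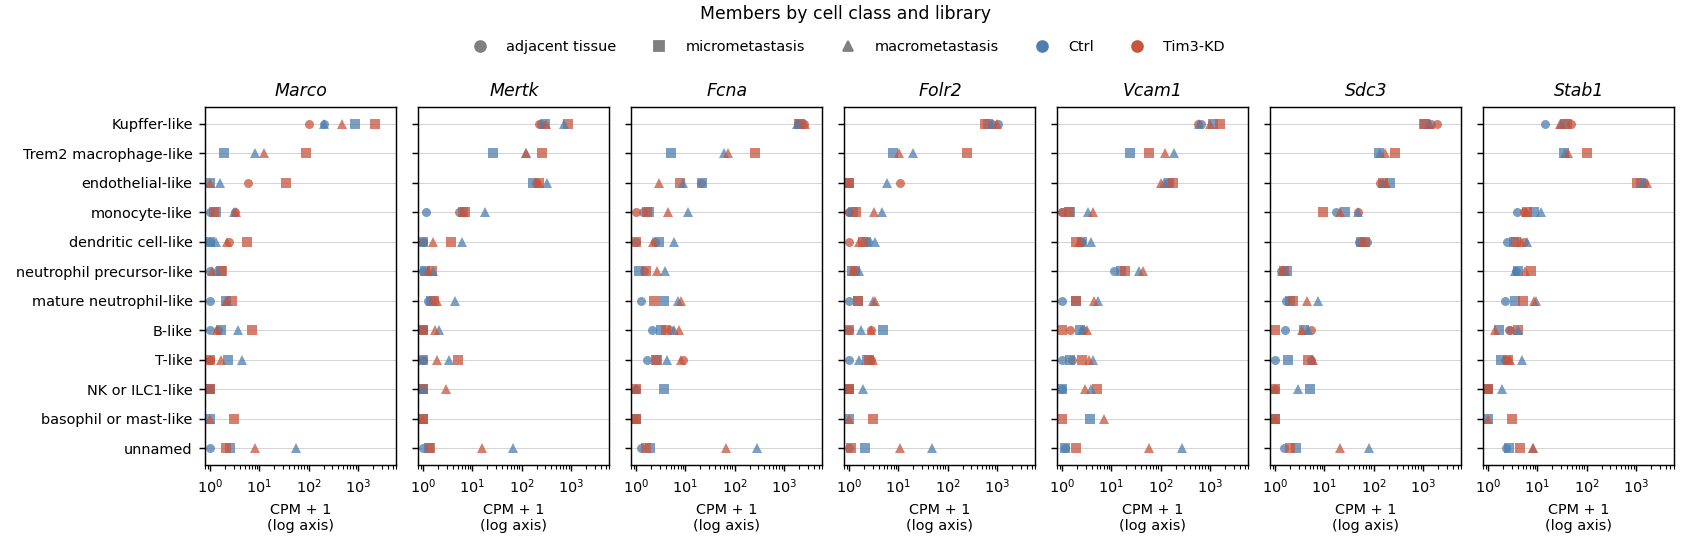
Level of each gene by cell class; the x axis is CPM + 1 on a log axis, each point is 1 library (shape: site; color: tumor genotype), and classes with fewer than 20 cells in a library are not drawn. Kupffer-like cells lie at the right for 6 genes, endothelial-like cells for Stab1, and Mertk, Vcam1 and Sdc3 are also found in endothelial-like and Trem2 macrophage-like cells.

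Stab1 was led by endothelial-like cells, which some of the libraries held although CD45+ cells were sorted. Its level there was 1417 CPM in Tim3-KD adjacent tissue, 1252 and 1052 CPM in Ctrl and Tim3-KD micrometastasis, and 1356 and 1678 CPM in Ctrl and Tim3-KD macrometastasis. The Ctrl library of adjacent tissue held 2 endothelial-like cells, too few for a level, and there Kupffer-like cells ranked first at 13.3 CPM with an interval that overlapped the next class. Endothelial-like cells also carried Mertk at 172 to 319 CPM, Vcam1 at up to 176 CPM and Sdc3 at 131 to 210 CPM in the 5 libraries with enough of them. Neutrophil precursor-like cells carried Vcam1 at 10.4 to 43.0 CPM, with 69 to 600 UMIs in each of 5 libraries, while their Sdc3 stayed at 0.302 to 0.743 CPM. Dendritic cell-like cells carried Sdc3 at 49.4 to 73.2 CPM in all 6 libraries, where their Vcam1 was 0.904 to 2.92 CPM.

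Within Kupffer-like cells, Marco and Mertk varied most between libraries and Fcna least. Marco, the class A scavenger receptor, stood at 207 CPM (164-259) and 101 CPM in adjacent tissue (Ctrl, then Tim3-KD, as in the following sentences). Its micrometastasis values were 847 and 2179 CPM and its macrometastasis values 206 and 472 CPM. Both micrometastasis libraries were thus above the other 4, and Tim3-KD micrometastasis was the highest. Mertk, the receptor for apoptotic cells, had adjacent tissue values of 247 and 221 CPM, micrometastasis values of 299 and 848 CPM and macrometastasis values of 729 and 307 CPM. Its 2 high libraries were Tim3-KD micrometastasis and Ctrl macrometastasis, and the other 4 lay between 221 and 307 CPM. Vcam1, which holds integrin-bearing leukocytes, had adjacent tissue values of 646 and 564 CPM, micrometastasis values of 1131 and 1556 CPM and macrometastasis values of 595 and 993 CPM. It was highest in both micrometastasis libraries.

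Fcna, the soluble lectin, had adjacent tissue values of 1883 and 2493 CPM, micrometastasis values of 2090 and 2000 CPM and macrometastasis values of 1838 and 2635 CPM. The highest and the lowest library were the macrometastasis pair, 1.43-fold apart. Folr2 had adjacent tissue values of 1032 and 771 CPM, micrometastasis values of 662 and 561 CPM and macrometastasis values of 794 and 1013 CPM. Folr2 was lowest in the 2 micrometastasis libraries, where Marco and Vcam1 were highest. Sdc3 had adjacent tissue values of 1449 and 1878 CPM, micrometastasis values of 1054 and 1084 CPM and macrometastasis values of 1348 and 1352 CPM, and it too was lowest in micrometastasis. Stab1 stayed low in these cells, at 13.3 to 47.4 CPM, and the lowest value, Ctrl adjacent tissue, rests on 5 UMIs.

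**Figure D2:**
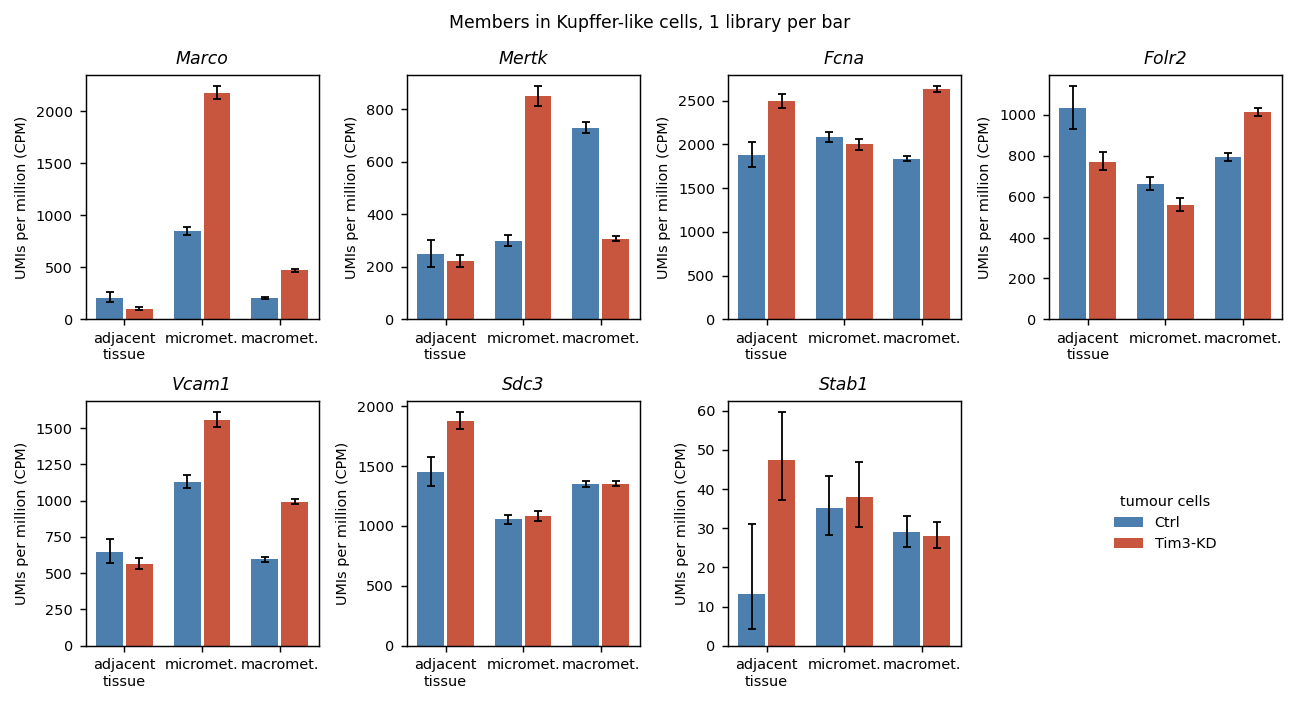
Level of each gene in Kupffer-like cells; bars are CPM of 1 library (y axis from 0, scale differs by gene; micromet. and macromet. are micrometastasis and macrometastasis), blue for Ctrl and red for Tim3-KD tumor cells, and error bars are exact 95% Poisson intervals for counting error. Marco reaches 2179 CPM in Tim3-KD micrometastasis, and the order of Ctrl and Tim3-KD for Mertk is opposite in micrometastasis and macrometastasis.

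The study asked how immune cells differ where tumor cells carry less Tim3. In micrometastasis, Kupffer-like cells of the Tim3-KD library held more Marco and more Mertk than those of Ctrl. Marco was 2.57-fold higher (2.44-2.71, 4990 and 2094 UMIs) and Mertk 2.84-fold higher (2.60-3.09, 1942 and 739 UMIs). These 2 of 7 genes passed 2-fold higher and 0 passed 2-fold lower, where 3.46% of 1790 genes with at least 50 UMIs over both libraries passed 2-fold higher and 1.4% lower. Vcam1 was 1.38-fold higher (1.31-1.45). The interval for Sdc3 (ratio 1.03; 0.973-1.09) and for Stab1 (1.08, 0.793-1.47) included 1, while Fcna (0.957, 0.920-0.996) and Folr2 (0.847, 0.786-0.911) lay below it. Cluster 20 held 22.3% of Ctrl and 1.57% of Tim3-KD Kupffer-like cells. In Ctrl its Mertk was at 0.202 and its Marco at 1.62 times the cluster 2 level. Within cluster 2 alone Marco was 2.76-fold and Mertk 2.56-fold higher in Tim3-KD. The summed mature neutrophil markers (9 of 9 with a UMI) were at 121 CPM in Kupffer-like cells of Ctrl and 449 CPM in those of Tim3-KD, and hepatocyte markers (3 of 3) at 106 and 349 CPM. Trem2 macrophage markers went the other way, at 213 CPM (6 of 6) and 66.4 CPM (5 of 6), as did Pf4, at 133 and 69.0 CPM. The part of these markers in the result was not tested.

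In macrometastasis, Marco was again higher with Tim3-KD tumor cells, and Mertk was lower. Marco was 2.29-fold higher (2.16-2.42, 4942 and 1581 UMIs). Mertk had a ratio of 0.421 (0.403-0.440, 3216 and 5594 UMIs). These were 1 gene past 2-fold higher and 1 past 2-fold lower, where 1.94% and 5.56% of 1960 genes passed. Vcam1 was 1.67-fold (1.61-1.73), Fcna 1.43-fold (1.40-1.46) and Folr2 1.28-fold higher (1.24-1.32). The intervals of Sdc3 (0.978-1.03) and Stab1 (0.812-1.16) included 1. Both Kupffer-like clusters showed these directions for Marco and Mertk: in cluster 2 the ratios were 2.21 and 0.443, and in cluster 20 they were 3.39 and 0.166. The Kupffer markers Cd5l, Vsig4, C1qa, Clec4f and Timd4 also had ratios of 1.36, 1.31, 1.27, 1.19 and 1.05 here. Hepatocyte markers (5 of 5 with a UMI) summed to 269 CPM in Kupffer-like cells of Ctrl and 147 CPM in those of Tim3-KD. The part of these markers was not tested.

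In adjacent tissue the comparison rests on the 31 Kupffer-like cells of Ctrl. Marco had a ratio of 0.488 (0.370-0.649, 156 and 78 UMIs), and Stab1 was 3.56-fold higher (1.46-11.3, 73 and 5 UMIs). These were 1 gene past 2-fold lower and 1 past 2-fold higher, where 3.72% and 11.3% of 1856 genes passed. The Marco value depended on few cells: 2 of the 31 Ctrl cells, whose scores were at the cap of 10 and whose UMIs are therefore minimum values, held 79.5% of the Marco UMIs, against 26.3% in 5 cells at the cap in Tim3-KD. Averaged over cells rather than over UMIs, the ratio was 0.842 for Marco and 1.81 for Stab1, and neither passed 2-fold. Within cluster 2 alone, on 22 Ctrl cells, it was 0.321 for Marco (0.229-0.449) and 3.95 for Stab1 (1.61-12.6). Cluster 20 held 29.0% of Ctrl and 52.8% of Tim3-KD Kupffer-like cells. Fcna was 1.32-fold (1.22-1.44) and Sdc3 1.30-fold higher (1.18-1.42), though Sdc3 was at 0.972 with Kupffer cells called one by one, and Folr2 had a ratio of 0.747 (0.666-0.840). The intervals of Mertk (0.892, 0.707-1.13) and Vcam1 (0.873, 0.756-1.01) included 1. Endothelial markers summed to 569 CPM in Kupffer-like cells of Ctrl (8 of 12 with a UMI) and 624 CPM in those of Tim3-KD (12 of 12). Mature neutrophil markers summed to 324 CPM (8 of 8) and 51.3 CPM (5 of 8) and neutrophil precursor markers to 85.1 CPM (8 of 9) and 1.30 CPM (2 of 9), while Pf4 was at 47.9 and 128 CPM. The part of these markers was not tested.

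**Figure D3:**
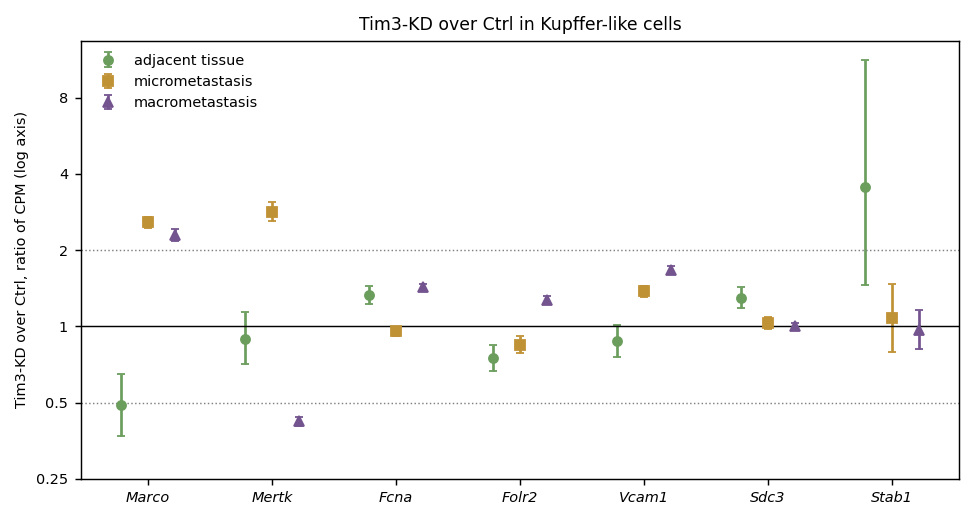
Ratio of CPM in Kupffer-like cells, Tim3-KD over Ctrl, for each gene at each site (log axis; error bars are exact 95% intervals for counting error, 1 library per group; dotted lines at 0.5 and 2). Marco lies above 2 in micrometastasis and macrometastasis and below 0.5 in adjacent tissue, and Mertk lies above 2 in micrometastasis and below 0.5 in macrometastasis.

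Between sites of the same day, Marco and Vcam1 were higher in Kupffer-like cells of micrometastasis than in those of adjacent tissue with either tumor genotype. In Ctrl, Marco was 4.09-fold (3.26-5.19) and Vcam1 1.75-fold higher (1.53-2.00), and in Tim3-KD they were 21.5-fold (18.4-25.4) and 2.76-fold higher (2.56-2.97). The size for Marco rests on the cells at the cap, which held 79.5% of the 78 Marco UMIs in Ctrl adjacent tissue (2 cells) and 26.3% of the 156 in Tim3-KD (5 cells), all minimum values. No Kupffer-like cell of micrometastasis was at the cap for Marco, so both Marco ratios are upper values in this respect. Mertk was 3.84-fold higher in Tim3-KD (3.42-4.33), while its interval in Ctrl included 1 (1.21, 0.974-1.52). Sdc3 and Folr2 went the other way, with ratios of 0.727 and 0.642 in Ctrl and 0.577 and 0.727 in Tim3-KD. In Ctrl, 2 of 7 genes passed 2-fold higher (Marco and Stab1, the latter on 5 UMIs in adjacent tissue) and 0 lower, against 6.29% and 5.01% of 1177 genes. In Tim3-KD, 3 of 7 passed 2-fold higher and 0 lower, against 8.21% and 4.87% of 1437 genes. Cluster 20 was 52.8% of Kupffer-like cells in Tim3-KD adjacent tissue and 1.57% in Tim3-KD micrometastasis (29.0% and 22.3% in Ctrl). Within cluster 2 of Tim3-KD, Marco was at 68.7 and 2172 CPM, Mertk at 267 and 847 CPM and Vcam1 at 615 and 1560 CPM. Mature neutrophil markers in Tim3-KD Kupffer-like cells summed to 51.3 (5 of 8 with a UMI) and 449 CPM (9 of 9). In Ctrl they were at 324 (8 of 8) and 121 CPM (9 of 9). The part of clusters and markers was not tested.

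From micrometastasis at day 3 to macrometastasis at day 12, Marco was lower with both genotypes, and Mertk and Fcna moved in opposite directions. The Marco ratio was 0.243 (0.228-0.260) in Ctrl and 0.216 (0.208-0.225) in Tim3-KD. Mertk was 2.44-fold higher in Ctrl (2.26-2.64) and had a ratio of 0.362 in Tim3-KD (0.342-0.383). Fcna had a ratio of 0.880 in Ctrl (0.852-0.908) and was 1.32-fold higher in Tim3-KD (1.28-1.36). Vcam1 was also lower in both, with ratios of 0.526 and 0.638, and Sdc3 was higher in both, 1.28-fold and 1.25-fold. Folr2 was 1.20-fold higher in Ctrl and 1.81-fold higher in Tim3-KD. Of the 7 genes, 1 passed 2-fold higher and 1 lower in Ctrl, against 2.9% and 1.96% of 1277 genes, and 0 passed higher and 2 lower in Tim3-KD, against 2.53% and 8.2% of 1305 genes. Cluster 20 went from 22.3% to 8.09% of Kupffer-like cells in Ctrl and from 1.57% to 19.4% in Tim3-KD. Within cluster 2, Mertk was at 331 and 732 CPM in Ctrl and 847 and 324 CPM in Tim3-KD. Mature neutrophil markers (9 of 9 with a UMI) summed to 121 and 140 CPM in Ctrl and 449 and 95.9 CPM in Tim3-KD. Hepatocyte markers (3 of 3, then 5 of 5) summed to 106 and 269 CPM in Ctrl and 349 and 147 CPM in Tim3-KD. The part of clusters and markers was not tested. The micrometastasis libraries enter both sets of comparisons between sites, and the shared values are not independent.

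Over whole libraries, a level combines the share of each class with the level in its cells. In adjacent tissue all 7 genes were 8.92-fold (Marco) to 22.9-fold (Fcna) higher in Tim3-KD, where Kupffer-like cells held 21.7% of UMIs against 1.23%, and 34% of 4484 genes passed 2-fold higher and 9.37% lower. With trimmed-mean scaling all 7 still passed, against 19.2% higher and 16.2% lower. Within Kupffer-like cells the ratios of the 6 genes other than Stab1 were 0.488 to 1.32 there. In micrometastasis 0 of 7 genes passed 2-fold, against 0.749% of genes higher and 18.2% lower, while Marco and Mertk did pass higher with trimmed-mean scaling, under which 2.96% of genes passed higher and 9.14% lower. Marco (1.69-fold) and Mertk (1.75-fold) were higher there, and Fcna (0.656), Folr2 (0.657), Sdc3 (0.588) and Stab1 (0.708) lower. The median log2 ratio of all genes was itself -0.43 in micrometastasis, -0.26 in macrometastasis and 0.59 in adjacent tissue. In macrometastasis Mertk (0.388) and Stab1 (0.378) passed 2-fold lower and 0 of 7 passed higher, against 10.6% and 2.27% of genes, while Marco passed 2-fold higher with trimmed-mean scaling (2.34, with 3.75% of genes) and with means over cells (2.13, with 1.82%). For Stab1 the endothelial-like cells that carry it were 7.04% of cells in Ctrl and 2.42% in Tim3-KD, and their part in the result was not tested.

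The 7 genes differed in how they were spread over single Kupffer-like cells. Fcna had a UMI in 96.8% to 99.5% of the cells of each library and Sdc3 in 96.8% to 100%. Marco had a UMI in 22.6% and 31.1% of adjacent tissue cells (Ctrl, then Tim3-KD), 52.6% and 74.9% of micrometastasis cells, and 29.3% and 52.5% of macrometastasis cells. The tenth of cells with the most Marco held 44.6% to 89.7% of its UMIs, against 22.4% to 29.2% for Fcna and 21.5% to 27.4% for Sdc3. A single cell held up to 163 Marco UMIs in Ctrl micrometastasis, where the median cell held 1. Mertk was more even, at a median of 7 UMIs per cell in Tim3-KD micrometastasis and 6 in Ctrl macrometastasis, against 2 in Ctrl micrometastasis and 3 in Tim3-KD macrometastasis.

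To compare shares at one depth, cells were thinned to 3000 UMIs, which left out 1 to 36 cells per library. Marco was then found in 20.0% and 16.8% of adjacent tissue cells, 44.4% and 66.4% of micrometastasis cells, and 19.7% and 37.6% of macrometastasis cells. Mertk was found in 46.7% and 33.7%, 56.3% and 91.0%, and 86.8% and 56.0% of these cells. B-like cells, thinned to the same depth, had Marco in at most 1.49% and Mertk in at most 0.573% of cells in a library. At least 5 of the 7 genes were found together in 26.7% (12.3%-45.9%) and 27.7% of thinned Kupffer-like cells of adjacent tissue, 54.8% and 79.1% of those of micrometastasis, and 56.7% and 59.1% of those of macrometastasis. Without thinning these shares were 51.6%, 67.0%, 84.3%, 94.5%, 85.4% and 87.1%. The shares with at least 5 genes depend on how often each gene was found by itself, and no share expected from those rates was computed.

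Marco was not tied to Mertk in the same direction in every library. Among thinned cells, Marco was more frequent in cells with Mertk than in those without it in 3 libraries and less frequent in the other 3. In Tim3-KD macrometastasis the shares were 41.6% and 32.6%, and in Ctrl micrometastasis 40.8% and 49.1%. Across thinned cells the Spearman correlation of Marco and Mertk lay between -0.08 and 0.08 in the 6 libraries, a description of sparse counts that share a library. Kupffer-like cluster 20 held less Vcam1 than cluster 2, and less Mertk except in Ctrl macrometastasis, where the interval of the ratio included 1. Mertk was at 0.388, 0.202, 0.906 and 0.340 times the cluster 2 level in Tim3-KD adjacent tissue, Ctrl micrometastasis, Ctrl macrometastasis and Tim3-KD macrometastasis, the 4 libraries with at least 20 cells of both. Vcam1 was at 0.706, 0.458, 0.411 and 0.532 times that level, and Folr2 at 1.40, 1.46, 1.15 and 1.14 times. Marco was at 2.68, 1.62, 0.944 and 1.45 times, with an interval that included 1 in Ctrl macrometastasis. Stab1 was at 0.313, 0.350, 0.131 and 0.454 times, on 1 to 11 UMIs in cluster 20. Cluster 20 held cells of fewer UMIs, with a median of 3833 to 7599 per library against 8788 to 22544 in cluster 2, and the part of depth in these differences was not tested.

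Macrophages outside the Kupffer-like class carried the same genes in some libraries. Trem2 macrophage-like cells (cluster 8, led by Sdc4, Trem2 and Ccl24) were 401 cells in Ctrl and 133 cells in Tim3-KD micrometastasis. Fcna stood at 4.10 CPM (Ctrl) and 253 CPM (Tim3-KD), Folr2 at 6.84 and 248 CPM, Mertk at 24.6 and 257 CPM, and Marco at 0.912 and 85.8 CPM. All 7 genes passed 2-fold higher in the Tim3-KD cells, where 14.6% of 1745 genes passed 2-fold higher and 6.76% lower. Fcna or Folr2 was found in 54.1% of the Tim3-KD cells (45.3%-62.8%) and in 5.24% of the Ctrl cells (3.27%-7.89%). Of the Kupffer markers, C1qa was at 800 CPM (Ctrl) and 3922 CPM (Tim3-KD) in this class, Cd5l at 5.93 and 273 CPM and Vsig4 at 1.82 and 63.9 CPM, while Clec4f was at 11.2 and 7.01 CPM. Neutrophil precursor markers (9 of 9 with a UMI) summed to 573 and 1648 CPM in the class, mature neutrophil markers (9 of 9) to 520 and 1149 CPM and hepatocyte markers (3 of 3) to 36.9 and 143 CPM. Their part in the result was not tested. The class differed in its cells between the 2 libraries: Pf4, a chemokine of platelets and some macrophages, stood at 40.8 CPM (Ctrl) and 437 CPM (Tim3-KD). At a finer clustering (Leiden resolution 2) 504 Ctrl and 58 Tim3-KD cells of micrometastasis were in the Trem2 class, and an unnamed cluster led by Pf4, Cxcl1 and Alb held 5 Ctrl and 91 Tim3-KD cells. With that border, an alternative chosen after seeing the data, 3 of the 7 genes passed 2-fold higher with at least 50 UMIs, Mertk, Folr2 and Vcam1, and 0 lower, against 9.16% and 7.74% of 1769 genes. Fcna was then at 2.76 CPM (Ctrl) and 23.1 CPM (Tim3-KD, 11 UMIs), Mertk at 20.8 and 141 CPM, Folr2 at 4.22 and 56.7 CPM (27 UMIs), Vcam1 at 18.2 and 54.6 CPM (26 UMIs) and Marco at 0.735 and 8.40 CPM, on 4 UMIs in each library.

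In macrometastasis the same class, of 104 Ctrl and 147 Tim3-KD cells, showed no such pattern. Mertk was at 120 CPM (Ctrl) and 121 CPM (Tim3-KD), Fcna at 58.9 and 72.9 CPM and Marco at 7.20 and 11.2 CPM. Folr2 was lower in Tim3-KD, at 19.0 and 9.17 CPM (ratio 0.483, with an interval below 1, on 29 and 18 UMIs), and so was Vcam1, at 188 and 120 CPM (ratio 0.637, 0.534-0.760). Fcna or Folr2 was found in 23.1% of the Ctrl cells (15.4%-32.4%) and 17.0% of the Tim3-KD cells (11.3%-24.1%).

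A small unnamed cluster of macrometastasis, cluster 25, was led by Pf4, Scd1 and Fbxo32, with the hepatocyte genes Alb and Fgb among its top 10, and held 52 Ctrl and 30 Tim3-KD cells. It carried Fcna at 1506 and 1256 CPM, Vcam1 at 1351 and 965 CPM, Mertk at 346 and 315 CPM and Marco at 285 and 134 CPM. Its Vcam1 and Marco in Ctrl were thus above the 595 and 206 CPM of Kupffer-like cells there, while all unnamed clusters of that library together held 269 and 53.6 CPM. With this cluster counted as Kupffer-like, a choice made after seeing the data, the macrometastasis ratio was 2.19 for Marco and 0.437 for Mertk.

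Genes past 2-fold were also counted among 59 other scavenger, complement and clearance genes listed beside these 7. Of this list, Clec4f, Vsig4, Timd4, Cd5l, C1qa, C1qb, C1qc, Cd163, Slc40a1 and Spic were also markers used to name the Kupffer-like class. In Kupffer-like cells of micrometastasis 0 of 38 measured genes passed higher and 1 passed lower, Cd36, a fatty acid and lipoprotein receptor (ratio 0.115, 0.0356-0.287, on 47 Ctrl and 5 Tim3-KD UMIs), against 3.46% and 1.4% of all genes measured. In macrometastasis 0 of 41 passed higher and 1 lower, the integrin chain Itgb7 (ratio 0.479), against 1.94% and 5.56% of genes. In adjacent tissue 3 of 41 passed higher, Itgav (3.72-fold), the MERTK ligand Gas6 (3.11-fold) and Cd36 (2.39-fold, 0.958-7.69), each on 5 to 9 UMIs in Ctrl, against 11.3% of genes. The list's median log2 ratio was -0.05 in micrometastasis (all genes measured: 0.13), 0.18 in macrometastasis (-0.01) and 0.09 in adjacent tissue (0.16). The Kupffer markers Clec4f, Vsig4, Timd4, Cd5l and C1qa had ratios of 0.712 to 1.36 at the 3 sites.

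Across 62 sums of a class in a library, the genes most like each of the 7 were ranked by Pearson correlation of log2(CPM + 10), among 1624 genes. Fcna was most like the Kupffer markers Vsig4 (0.984) and Cd5l (0.983), Marco most like Cd163 (0.954), the hemoglobin-haptoglobin receptor, and Folr2 most like Fabp7 (0.980), a fatty acid-binding protein, and Siglec1 (0.974). Mertk was most like Il1a (0.954), and Vcam1 and Mertk shared Rcan1 (0.926 and 0.953). Sdc3 was most like Tcf7l2 (0.971) and the lysosomal enzymes Lipa (0.963) and Ctsb (0.946). Stab1 was most like Eng (0.966), an endothelial co-receptor, and its correlation with the other 6 genes was 0.21 to 0.75. By Spearman correlation Fcna kept Cd5l (0.861) and Vsig4 (0.827), while the first gene became Lpl for Marco (0.707), C1qb for Folr2 (0.746), Pmp22 for Mertk (0.872), Tspan15 for Vcam1 (0.753), Cttnbp2nl for Sdc3 (0.936) and Dab2 for Stab1 (0.866). These sums share libraries and classes and the correlations are descriptions.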

How the data were processed

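CD45+ liver cells were sequenced with the 10x Genomics 3' kit (v3.1), 1 library per group. The deposited values are scores that the authors made from UMI counts, with Trim Galore 0.4.3, STAR 2.7.7a and GRCm38 named in the submitters' processing notes. In the model of these scores used here, each gene was scaled to mean 0 and unit SD over both libraries of a site. Total UMIs were regressed out and a cap of 10 was set. Here the scores were turned back into UMIs, and at least 99.998% of values came out whole within 0.05. Values at the cap are the smallest whole number that reaches it. Scores were also simulated for adjacent tissue (4486 genes). Among genes with at least 50 UMIs in Kupffer-like cells, at least 99.94% of UMI values, counts of 0 included, were recovered. Values at the cap were counted as recovered, so this check does not cover them. The matrices hold 10.5% to 20.2% of all UMIs, and totals are those recovered from the regressed covariate.

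Cells were clustered (scanpy 1.11.5, Leiden resolution 1, 30 principal components, 15 neighbors) on the 1642 genes common to the matrices without the 7 genes, and a cluster was named X-like from at least 3 detected markers. A doublet score was computed and no cell removed. Groups came from the sample labels, and since each holds 1 library, values are given with exact intervals and no test. A gene was called past 2-fold with at least 50 UMIs over both libraries. The genes named are the 7, the 3 most like each, listed scavenger genes past 2-fold and 5 Kupffer markers. The 7 genes and the lists were chosen with earlier results of these data known. Alternatives covered scaling, class borders, doublets, depth and the cap. Depth limits rare transcripts, and a count of 0 allows up to 3 counts.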

Additional observations from a re-analysis of the deposited data

Results flagged for a closer look

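For 4 genes the Tim3-KD over Ctrl ratios in Kupffer-like cells lay on opposite sides of 1 at different sites, each with an interval that excluded 1. There is 1 library per group, and the differences between sites were not tested. For Marco the ratio was 2.57 in micrometastasis and 2.29 in macrometastasis and 0.488 in adjacent tissue, where 2 cells at the cap held most Ctrl UMIs. For Mertk it was 2.84 in micrometastasis and 0.421 in macrometastasis. For Fcna it was 1.32 in adjacent tissue and 1.43 in macrometastasis, against 0.957 in micrometastasis, where within cluster 2 alone it was 0.962 with an interval that included 1. For Folr2 it was 1.28 in macrometastasis, against 0.747 in adjacent tissue and 0.847 in micrometastasis. The 5 Kupffer markers had ratios of 1.05 to 1.36 in macrometastasis, 0.867 to 1.00 in micrometastasis and 0.712 to 1.09 in adjacent tissue.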

How the results depend on the processing

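Within a site, no paired analysis was possible because it holds 1 library per tumor genotype. With the 3 sites taken as pairs, a choice made after seeing the data, the mean log2 ratio in Kupffer-like cells was 0.51 ± 1.34 (SD, n = 3) for Marco and 0.03 ± 1.39 for Mertk. The SD exceeded the size of the mean for each of the 7 genes, and an exact two-sided sign-flip permutation test over 3 pairs cannot go below 0.25. In Kupffer-like cells, Marco stayed past 2-fold higher in micrometastasis (2.35 to 2.76 over 8 alternatives) and macrometastasis (2.10 to 3.39 over 10), and Mertk stayed past 2-fold in opposite directions (2.56 to 2.94 and 0.166 to 0.443). Of the ratios whose interval excluded 1, 3 changed side under alternatives other than leaving out cells at the cap: Sdc3 in adjacent tissue (0.972) and Fcna of Ctrl micrometastasis over adjacent tissue (0.988) with Kupffer cells called one by one, and Sdc3 over whole macrometastasis libraries with trimmed-mean scaling (1.09). The number of the 7 genes past 2-fold in adjacent tissue fell from 2 to 0 with means over cells (14% of genes passed higher and 5.77% lower). Over whole micrometastasis libraries it went from 0 to 2 higher with means over cells (1.8% of genes higher, 13% lower) and with trimmed-mean scaling (2.96%, 9.14%). In whole macrometastasis libraries it went from 2 to 3 with both, by Marco (1.82% and 3.75% of genes higher), and for Ctrl macrometastasis over micrometastasis from 2 to 3 with trimmed-mean scaling, by Vcam1 (0.494; 2.9% of genes lower). Leaving out cells at the cap removes cells by their own Marco value, with more of the UMIs in Ctrl than in Tim3-KD, which raises the ratio by construction: in adjacent tissue it gave 1.51 for Marco and 1 gene past 2-fold, which are no estimates and bear on no result. The trimmed mean of log2 ratios over genes in Kupffer-like cells was 0.12 (adjacent tissue), 0.13 (micrometastasis) and -0.02 (macrometastasis). Without the 50-UMI minimum, the genes past 2-fold numbered 1401 in adjacent tissue (279 with it), 422 in micrometastasis (87) and 458 in macrometastasis (147). Between sites they numbered 688 (133) and 611 (188) for micrometastasis over adjacent tissue in Ctrl and Tim3-KD, and 329 (62) and 444 (140) for macrometastasis over micrometastasis. At 1.5-fold they numbered 645, 304, 380, 383, 479, 245 and 317 in the same order. Without thinning, 51.6%, 67.0%, 84.3%, 94.5%, 85.4% and 87.1% of Kupffer-like cells held 5 or more of the genes. The cause of these changes was not tested, except that a lower fold or UMI minimum admits more genes by construction. In the Trem2 class of micrometastasis the number past 2-fold fell from 7 to 3 at Leiden resolution 2. This border and adding cluster 25 to the Kupffer-like class were chosen after seeing the data, as was leaving out cells at the cap between sites, which is void for Marco in the same way. With 1 library per group, variation between mice is not measured.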
